A study of Macaca fascicularis with 12 samples.

Results

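The genes described here are the cytosolic DNA sensors and the relay behind them: CGAS (older name MB21D1), IFI16, AIM2, ZBP1, STING1 (older name TMEM173), TBK1, IKBKE and IRF3. All probe sets whose only gene symbol in the array annotation is one of these were taken, which gave 18 probe sets for 8 genes, of 52766 probe sets that are not controls. Tissue came from 3 adult male cynomolgus macaques (Macaca fascicularis), each with BV-HSVtk, a baculovirus vector purified by membrane chromatography and high-speed centrifugation, in the left striatum and a mock preparation in the right. Each hemisphere received 4 injections of 10 µl, with 1E8 viral particles per injection on the BV side, and the mock was Sf9 insect cell medium without virus that went through identical purification steps. After 2 days, 2 pieces weighing about 100 mg were collected from each hemisphere, and each was run on 1 array, so that 6 BV arrays were set against 6 mock arrays. BV was on the left in all animals, so the effects of treatment and of brain side cannot be told apart, and no uninjected tissue was analysed here.

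Baculoviruses carry a double-stranded DNA genome into mammalian cells without replicating there. DNA in the cytosol is bound by cGAS, the CGAS product, which makes the messenger cGAMP. This activates STING1 on the endoplasmic reticulum, and STING1 recruits the kinase TBK1 and its relative IKBKE, which phosphorylate IRF3 so that it enters the nucleus and turns on interferon beta. AIM2 binds the same kind of DNA but builds an inflammasome with PYCARD and caspase-1, its relative IFI16 acts beside cGAS and STING1, and ZBP1 binds nucleic acid in the Z form and can start necroptosis through RIPK3 and MLKL. In brain tissue, microglia are a main site of this machinery, and several of these genes are themselves interferon-induced.

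Of the 18 probe sets, 17 had higher and 1 had lower mean values in BV tissue, yet no member passed the test across the array. Among the 14 bright enough to be tested, 13 were higher, against 46.9% of all tested probe sets. The median difference of the tested probe sets was 0.53 on the log2 scale, against -0.02 over all 31660 tested probe sets. A probe set was tested when its mean log2 signal over the 12 arrays was at or above 4.95, the 40th percentile, and 14 of the 18 were, from 7 genes. The limma fit compared 3 BV with 3 mock hemisphere means with animal as a block, and p-values were adjusted by Benjamini-Hochberg over all tested probe sets. Member adjusted p-values ran from 0.472 to 0.806. At an adjusted p under 0.05, 0.0284% of all tested probe sets were called higher and 0% lower.

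Before adjustment, 7 of the 14 tested member probe sets, from 4 genes, had higher values at a p under 0.05, against 5.15% of all tested probe sets, and 0 had lower values, against 3.65%. In 6 of 14 the BV array was higher in 6 of 6 replicate pairs, against 3.37% of all tested probe sets. These 6 came from 6 different genes: IFI16, AIM2, ZBP1, STING1, TBK1 and IRF3. Some of their pair differences were close to 0, as in TBK1 at 0.020 (pair 1) and 0.0021 (pair 3), and ZBP1 at 0.024 (pair 1) and 0.012 (pair 4). Other tested probe sets of these genes were higher in fewer pairs, down to 2 of 6 for the brightest AIM2 probe set. In 9 of 14 the BV hemisphere was the higher one in 3 of 3 animals, against 15.9%. In 5 of 14 the lowest BV hemisphere lay above the highest mock hemisphere, against 4.71%, and in 0 of 14 did the 6 BV arrays lie wholly above the 6 mock arrays, against 0.237%. Probe sets of 1 gene share their samples and partly their transcript, so these counts describe the arrays and are not independent.

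**Figure D1:**
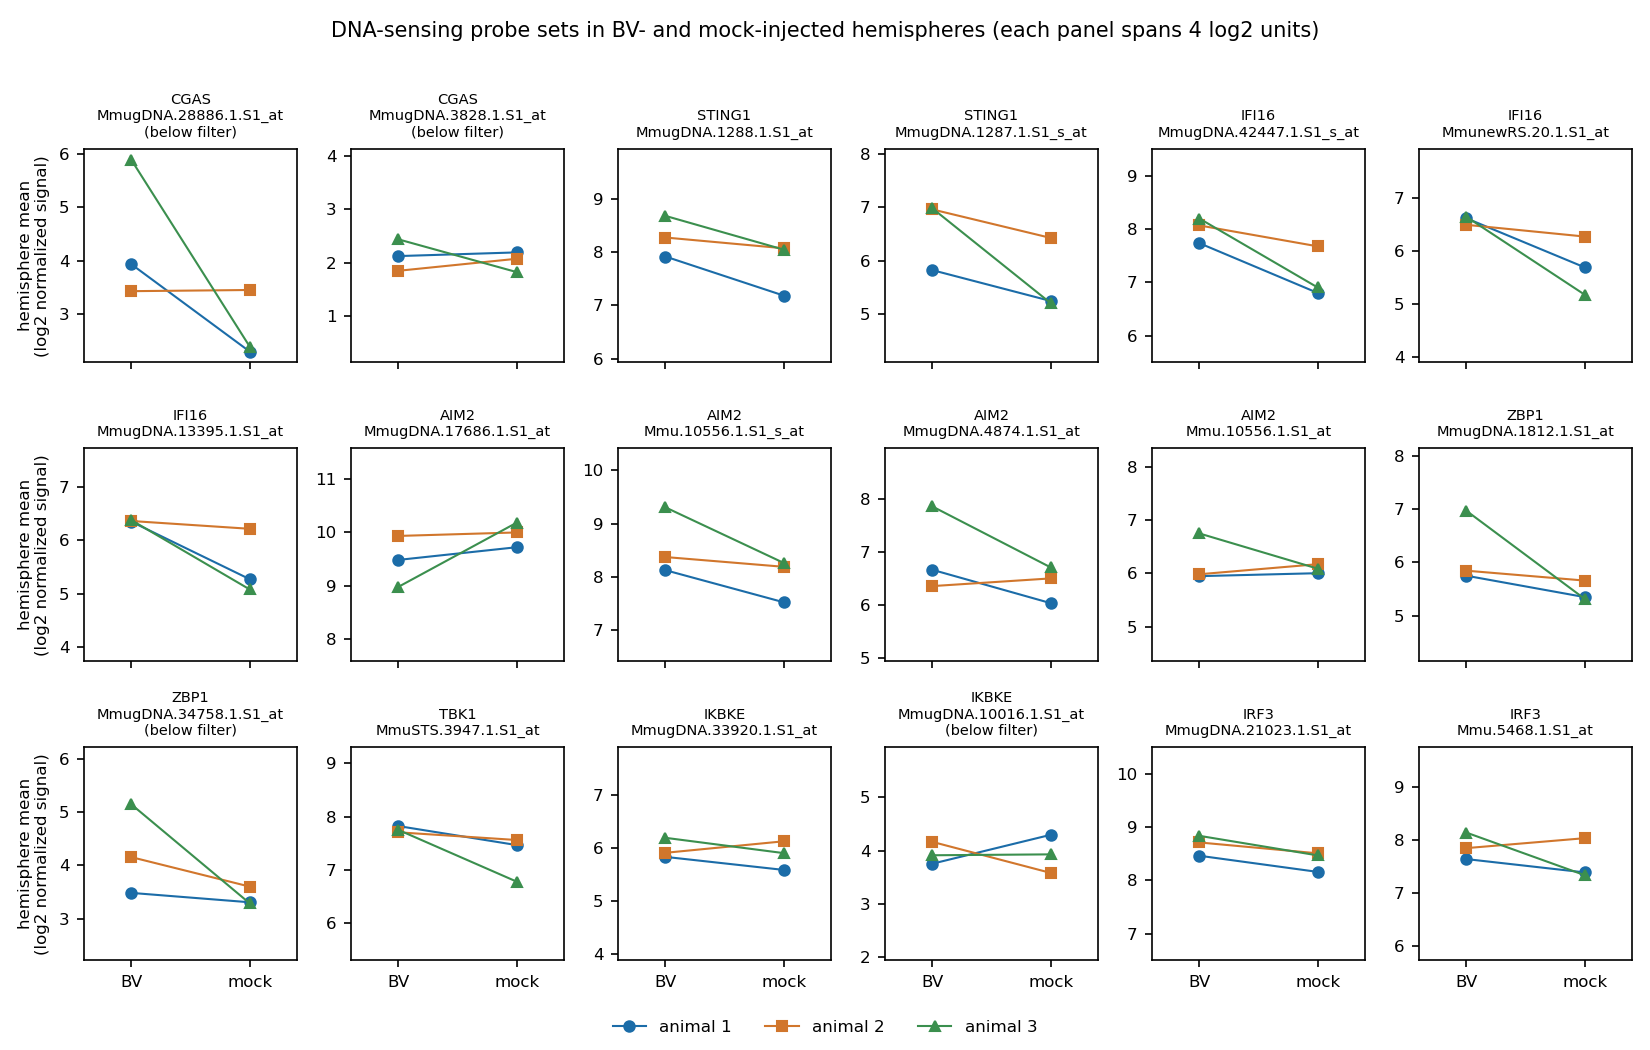
Hemisphere means of the 18 member probe sets on the log2 normalized signal scale, BV left and mock right, with a line for each of the 3 animals; every panel spans 4 log2 units. Most lines are higher on the BV side, the steepest usually belong to animal 3, and the brightest AIM2 probe set runs the other way.

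CGAS itself was too dim to be tested. Its probe set MmugDNA.28886.1.S1_at was at 3.93, 3.43 and 5.89 log2 units in the BV hemispheres of animals 1, 2 and 3, against 2.29, 3.45 and 2.39 in the mock hemispheres. The BV hemispheres of animals 1 and 3 stood above their mock sides while animal 2 showed no difference, and the groups overlap. In the deposited, unnormalized intensities its 6 BV arrays ran from 2.9 to 72.2 with a median of 14.2, against 0.839 to 12.3 with a median of 1.88 in the mock arrays. The high BV values were the pieces of animal 3, at 72.2 and 42.3, and the second piece of animal 1, at 21.5; the first piece of animal 1 was at 2.9. The mean difference was 1.71 on the log2(signal + 3.49) scale. Its size depends on that added constant, since the normalized signal of 1 of 6 BV arrays and 5 of 6 mock arrays lay under it. With no intensity filter the limma adjusted p was 0.625 over 52766 probe sets. The second CGAS probe set, MmugDNA.3828.1.S1_at, was among the dimmest on the array, with deposited intensities of at most 3.04 in BV and 2.64 in mock arrays, and a mean difference of 0.11.

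**Figure D2:**
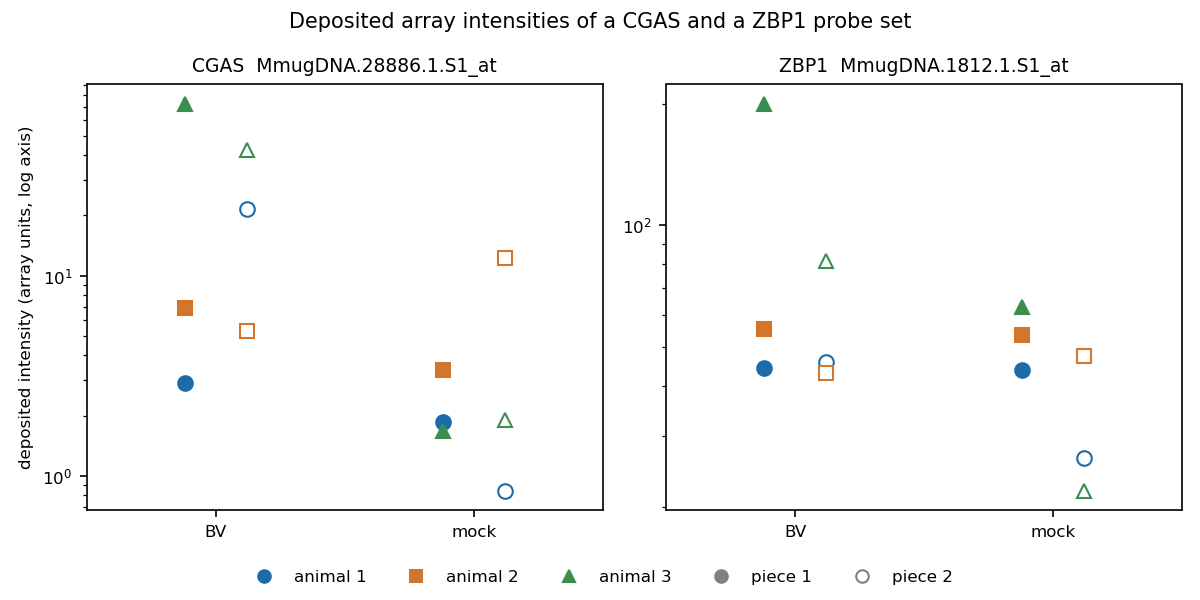
Deposited intensity, before normalization, on each of the 12 arrays for the brighter probe sets of CGAS and ZBP1, on log axes, with animals by symbol and tissue pieces as filled (piece 1) or open (piece 2) marks. The highest CGAS and ZBP1 values are the BV arrays of animal 3; piece 1 arrays were deposited on a brighter scale than piece 2 arrays.

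IFI16, a DNA-binding protein of the PYHIN family, had 3 tested probe sets with fitted differences of 0.84 to 0.87. The brightest, MmugDNA.42447.1.S1_s_at, was at 7.74, 8.07 and 8.20 log2 units in BV hemispheres, against 6.80, 7.68 and 6.90 in mock hemispheres, so all BV hemispheres lay above all mock ones. Its difference was 0.87 ± 0.21 (SE of the limma fit, n = 3 animals), or 1.83-fold, with an unadjusted p of 0.00561 and an adjusted p of 0.472, the smallest of the members. MmunewRS.20.1.S1_at and MmugDNA.13395.1.S1_at had differences of 0.87 ± 0.25 and 0.84 ± 0.25 (limma adjusted p = 0.564 for both), again without overlap of the hemispheres. The mock side varied more than the BV side. For MmugDNA.13395.1.S1_at the hemisphere means were 6.36 ± 0.01 in BV and 5.52 ± 0.61 in mock tissue (SD, n = 3 each). Single BV arrays of this probe set ran from 6.07 to 6.63. The mock hemisphere of animal 2, at 6.22, joined pieces at 5.26 and 7.17, the second above every BV array. That array, mock replicate 4, was also the highest mock array on MmugDNA.42447.1.S1_s_at (8.41) and MmunewRS.20.1.S1_at (6.87). By Affymetrix naming, the suffix s_at marks a probe set whose probes match several transcripts, so the brightest one may not read IFI16 alone.

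AIM2, the inflammasome sensor of the same family, had 4 tested probe sets that disagreed in direction. The brightest, MmugDNA.17686.1.S1_at, at the 95.7th percentile of brightness on the arrays, was at 9.48, 9.93 and 8.98 log2 units in BV hemispheres, against 9.72, 10.00 and 10.18 in mock hemispheres. It was lower in BV tissue in 3 animals, by far most in animal 3, with a difference of -0.50 ± 0.24 (SE, limma adjusted p = 0.569). The next, Mmu.10556.1.S1_s_at, was at 8.13, 8.37 and 9.31 in BV hemispheres, against 7.52, 8.19 and 8.26 in mock hemispheres. Its BV array was the higher one in 6 of 6 pairs, with a difference of 0.61 ± 0.20 (limma adjusted p = 0.564). MmugDNA.4874.1.S1_at had a difference of 0.54 ± 0.26 (limma adjusted p = 0.569), with 0.63, -0.14 and 1.14 in animals 1, 2 and 3 and a fold of 0.24 without animal 3, and Mmu.10556.1.S1_at one of 0.14 ± 0.21 (limma adjusted p = 0.788). Over the 6 pair differences the brightest probe set ran against the other three, with Pearson r between -0.87 and -0.82, and those ran together, with r between 0.78 and 0.97. These correlations rest on 6 pairs from 3 animals that share arrays. Probe sequences were not used here, so which of these reads AIM2 was not tested.

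ZBP1, the Z-form nucleic acid sensor, was higher in BV tissue mainly in animal 3. Its tested probe set MmugDNA.1812.1.S1_at was at 5.75, 5.84 and 6.97 log2 units in BV hemispheres, against 5.35, 5.66 and 5.31 in mock hemispheres, and the groups do not overlap. The difference was 0.75 ± 0.30 (SE, n = 3 animals), or 1.68-fold, with a limma adjusted p of 0.564. By animal it was 0.40, 0.19 and 1.65, and the fold was 0.29 without animal 3. The other probe set, MmugDNA.34758.1.S1_at, lay under the filter, at 3.48, 4.16 and 5.15 in BV hemispheres, against 3.31, 3.60 and 3.29 in mock hemispheres, a mean difference of 0.86. Both probe sets were thus highest in the BV hemisphere of animal 3.

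STING1, the adaptor that cGAMP activates, was higher in the BV hemisphere of every animal on both of its probe sets. MmugDNA.1288.1.S1_at was at 7.92, 8.27 and 8.68 log2 units in BV hemispheres, against 7.18, 8.07 and 8.05 in mock hemispheres. MmugDNA.1287.1.S1_s_at, dimmer and of the several-transcript kind, was at 5.82, 6.96 and 6.98 in BV hemispheres, against 5.24, 6.43 and 5.20 in mock hemispheres. The groups overlap on both, while the paired differences point the same way, at 0.73, 0.20 and 0.63 for the first and 0.58, 0.54 and 1.78 for the second. The fitted differences were 0.52 ± 0.17 and 0.96 ± 0.28, or 1.44-fold and 1.95-fold (SE, n = 3 animals, limma adjusted p = 0.564 for both).

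Of the kinases, TBK1 had a single probe set, MmuSTS.3947.1.S1_at, at 7.82, 7.71 and 7.75 log2 units in BV hemispheres, against 7.47, 7.56 and 6.78 in mock hemispheres. The BV hemispheres were nearly equal to each other and all above the mock ones, of which that of animal 3 was lowest. The difference was 0.49 ± 0.20 (SE, limma adjusted p = 0.564). IKBKE, the inducible relative, showed little: MmugDNA.33920.1.S1_at was at 5.83, 5.91 and 6.19 in BV hemispheres, against 5.59, 6.12 and 5.90 in mock hemispheres, a difference of 0.11 ± 0.17 (limma adjusted p = 0.806). Its dim probe set MmugDNA.10016.1.S1_at averaged 3.94 ± 0.21 in BV and 3.94 ± 0.36 in mock hemispheres (SD, n = 3 each).

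IRF3, the transcription factor at the end of the relay, is made constitutively and controlled by phosphorylation, which arrays do not measure. MmugDNA.21023.1.S1_at was at 8.46, 8.71 and 8.83 log2 units in BV hemispheres, against 8.16, 8.50 and 8.47 in mock hemispheres. The difference was small but in the same direction in 6 of 6 pairs, at 0.29 ± 0.14 or 1.22-fold (SE, limma adjusted p = 0.569). Mmu.5468.1.S1_at had a difference of 0.29 ± 0.22 (limma adjusted p = 0.618), with animal 2 at -0.19.

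**Figure D3:**
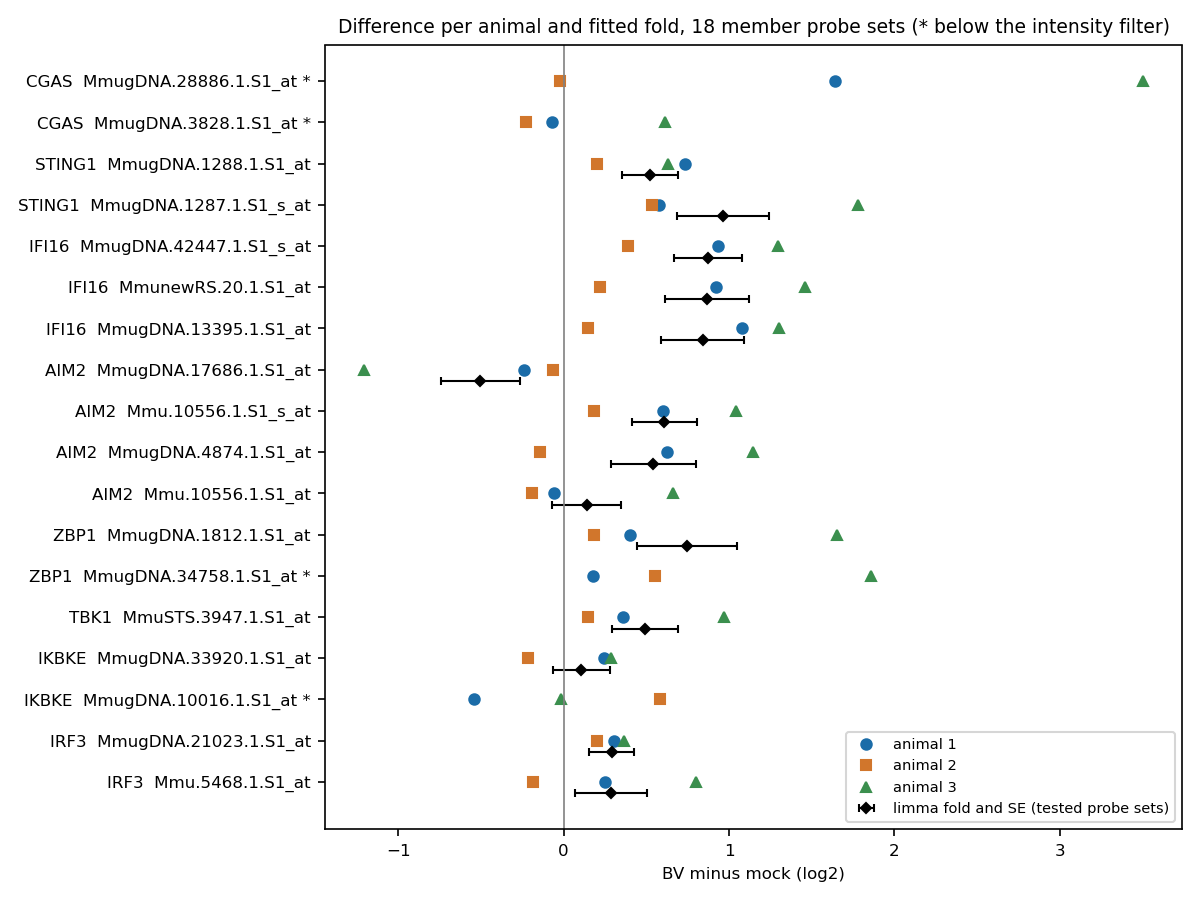
BV minus mock differences on the log2 scale for the 18 member probe sets, with 1 mark per animal and, for the 14 tested probe sets, the limma fold with its standard error as a black diamond. Among the tested rows animal 2 lies nearest to 0 in 13 and animal 3 farthest to the right in 12; in the brightest AIM2 row all 3 animals lie left of 0, animal 3 farthest.

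The animals differed in the same order on most members. Animal 2 had the difference nearest to 0 in 13 of the 14 tested probe sets, and animal 3 had the highest in 12. The median difference over the 14 was 0.49, 0.16 and 1.01 in animals 1, 2 and 3, against -0.02, -0.0036 and -0.02 over all tested probe sets. Interaction between animal and treatment was tested with limma's F statistic on the 12 single arrays, taking the 2 pieces of a hemisphere as replicates. It called 0 probe sets (0%), with 735 at an unadjusted p under 0.05. Among members, ZBP1 MmugDNA.1812.1.S1_at had an unadjusted p of 0.0468, the only 1 under 0.05. With piece as an added term, the F test again called 0 probe sets, with 1620 at an unadjusted p under 0.05. Without animal 2, 5 member probe sets passed, all higher in BV tissue: the 3 of IFI16 (limma adjusted p of 0.00877 to 0.0105), STING1 MmugDNA.1287.1.S1_s_at (0.0255) and AIM2 MmugDNA.4874.1.S1_at (0.0375). That fit rests on 2 animals with 1 residual degree of freedom, and it called 3.67% of all tested probe sets higher and 2.16% lower. Without animal 3, 10 of the 14 probe sets had a difference under 1/1.5 of the reported size or of the other sign. Among them TBK1 was at 0.25, STING1 MmugDNA.1287.1.S1_s_at at 0.56, the brightest AIM2 probe set at -0.15 and AIM2 Mmu.10556.1.S1_s_at at 0.39, and IRF3 Mmu.5468.1.S1_at was at 0.03.

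Piece 1 and piece 2 arrays were deposited on different scales, so the members were also fitted within each set. For the brightest IFI16 probe set the difference was 0.90 in piece 1 and 0.85 in piece 2, for STING1 MmugDNA.1288.1.S1_at 0.60 and 0.45, and for ZBP1 MmugDNA.1812.1.S1_at 0.64 and 0.86. TBK1 had 0.28 in piece 1 and 0.70 in piece 2, and the brightest AIM2 probe set -0.23 and -0.77. CGAS MmugDNA.28886.1.S1_at had differences of 0.24, 0.68 and 3.62 in piece 1 and of 3.04, -0.72 and 3.39 in piece 2 of animals 1, 2 and 3, so both pieces were high in BV tissue of animal 3 and they differed in animals 1 and 2. No member passed in either set, with limma adjusted p from 0.262 to 0.953 in piece 1 and from 0.75 to 0.889 in piece 2.

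The genes around the relay were read from 8 lists holding 124 genes, of which 84 were tested, each by its brightest probe set, and 3 passed. Most calls came from the target genes. Of 11 tested genes that IRF3 and NF-kappaB can turn on, 10 had higher values, 2 rose and the median difference was 1.15. ISG15, a ubiquitin-like protein, rose by 3.56 ± 0.13 (limma adjusted p = 0.00539) and IFIT3, which stabilises the RNA-binding IFIT1, by 2.13 ± 0.14 (0.0256). IFIT1 itself had a difference of 2.60 ± 0.22 that missed the threshold (limma adjusted p = 0.072). It passed in 13 alternative fits, among them the piece 1 arrays alone (limma adjusted p = 0.0448) and without animal 3 (0.00166). Another was the replicate number as a block on single arrays (0.005), which takes the pieces of a hemisphere as independent. IFIT1 missed it in the other fits, such as the piece 2 arrays alone (limma adjusted p = 0.545). ISG15, IFIT3 and IFIT1 are also induced by interferon itself. IFNB1, the interferon beta gene that IRF3 turns on, lay under the filter at a mean log2 signal of 3.77, with a mean difference of -0.60. ISG15 lost its call in the piece 2 arrays alone (limma adjusted p = 0.15), without mock replicate 5 (0.337) and without replicate pair 2 (0.0872) or 5 (0.219), with differences of 3.23 to 4.10. IFIT3 lost it with no intensity filter (0.0516), no normalization (0.107) or no variance trend (0.103), in piece 2 (0.739), without animal 1 (0.127), BV replicate 3 (0.0618) or 6 (0.0655), mock replicate 3 (0.328) or 5 (0.419), or replicate pair 2 (0.0742), 3 (0.286) or 5 (0.262), with differences of 1.81 to 2.25.

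**Figure D4:**
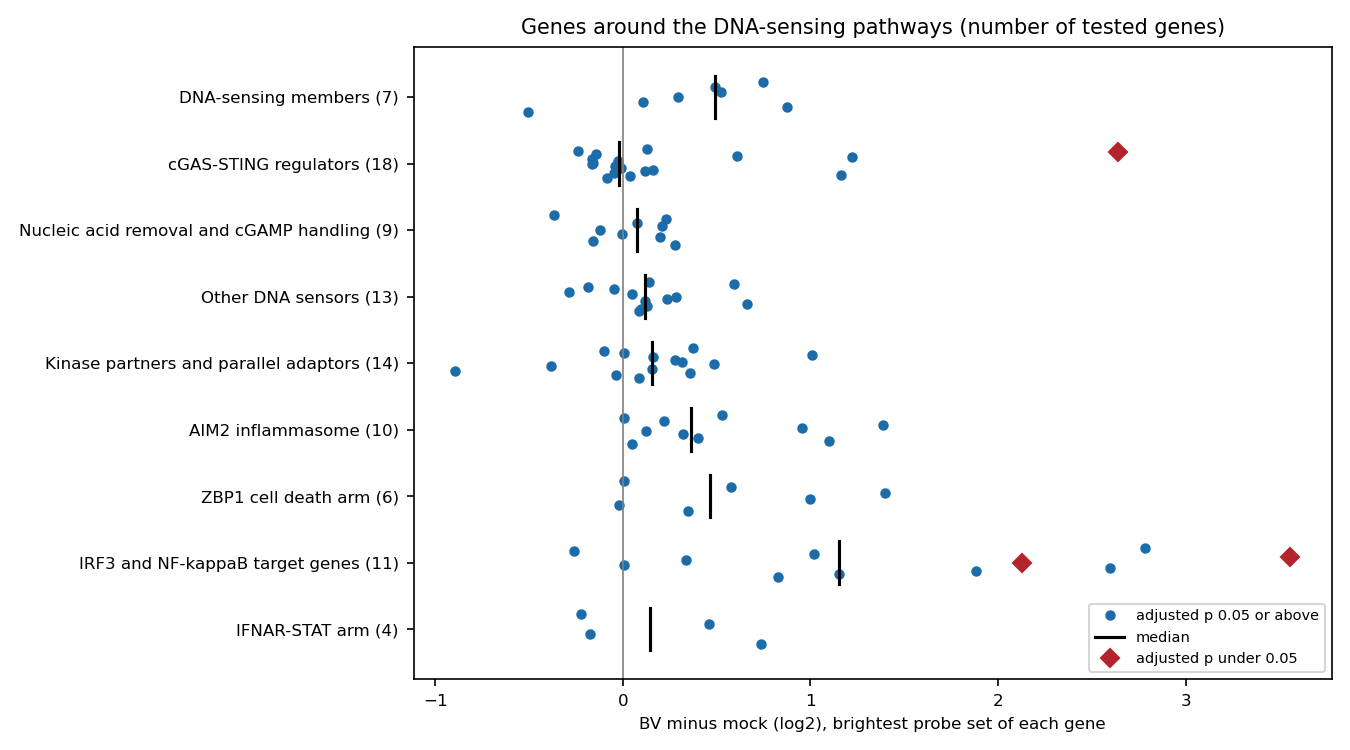
BV minus mock difference on the log2 scale of the brightest probe set of each tested gene, by pathway list, with medians as vertical bars and genes with a limma adjusted p under 0.05 as red diamonds. The IRF3 and NF-kappaB target genes have the highest median, at 1.15. The medians are 0.07 for the tested nuclease and transporter genes and 0.12 for other DNA sensors, with single genes on both sides of 0.

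Among regulators of cGAS and STING1, 8 of 18 tested genes had higher and 10 lower values, with a median of -0.02, and 1 rose. This was TTLL6, a tubulin glutamylase that in mice also adds glutamate chains to cGAS, at 2.64 ± 0.18 (limma adjusted p = 0.0269). TTLL6 has 3 tested probe sets with differences between 2.38 and 2.64. Whether they read TTLL6 was not tested, and it was known to stand out in these data when the list was written. The TTLL6 call was lost with no normalization (limma adjusted p = 0.149), median centring (0.0592), no variance trend (0.0783) or no animal block (0.336). TTLL6 also lost it in piece 2 (limma adjusted p = 0.545) and without animal 1 (0.164), BV replicate 6 (0.102), mock replicate 3 (0.31) or 5 (0.337), or replicate pair 1 (0.052), 2 (0.0872), 3 (0.151) or 5 (0.219). Its difference was 2.43 to 2.81 in these fits. TRIM21, a ubiquitin ligase and cytosolic antibody receptor, had a difference of 1.22 ± 0.38 (limma adjusted p = 0.564) and the interferon-induced IFI35 one of 1.16 ± 0.21 (0.353).

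Of 16 listed genes that remove nucleic acids or carry cGAMP, 9 had a probe set with a single gene symbol. Those without included TREX1, SAMHD1, ADAR and RNASEH2C, so the list does not cover them. The 9 genes gave no call, with 5 higher, 4 lower and a median of 0.07. SLC19A1, a folate carrier that also imports cGAMP-like dinucleotides in human cells, had a difference of -0.36 ± 0.15 (limma adjusted p = 0.564), and its other tested probe set 0.17. LRRC8C, a subunit of volume-regulated channels, had 0.21 ± 0.21 (0.698), and the export pump ABCC1 had 0.28 ± 0.15 (0.572). Other DNA sensors gave no call either, with 10 of 13 higher and a median of 0.12. In that list XRCC5, the Ku80 subunit that binds DNA ends, had 0.59 ± 0.21 (limma adjusted p = 0.564), and its other tested probe set 0.08. The chromatin protein HMGB2 had 0.66 ± 0.32 (limma adjusted p = 0.569), and PQBP1, which helps cGAS sense retroviral DNA, -0.29 ± 0.18 (0.588).

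Partners of the kinases and parallel adaptors had 10 of 14 higher values, a median of 0.16 and no call. TBKBP1, an adaptor that binds TBK1, had a difference of 1.01 ± 0.34, with 0.42, 0.53 and 2.07 in animals 1, 2 and 3, where the mock hemisphere of animal 3 was low at 3.81, and MAVS, the adaptor of RNA sensors, one of -0.39 ± 0.15 (limma adjusted p = 0.564 for both). MAVS was lower in BV tissue in 6 of 6 pairs. NFKB1, an NF-kappaB subunit, had 0.48 ± 0.22 (limma adjusted p = 0.568).

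The list around the AIM2 inflammasome also held genes of other inflammasomes and of the interleukin-1 system, such as NLRP3, NLRC4 and IL1R1. Its values are therefore not a reading of AIM2 output. In it, 10 of 10 tested genes had higher values and 0 passed. Their median difference was 0.36, or 0.31, -0.02 and 0.77 in animals 1, 2 and 3. NAIP, which senses bacterial proteins for another inflammasome, had 1.39 ± 0.22 (limma adjusted p = 0.281), CASP4, the caspase that senses lipopolysaccharide, 1.10 ± 0.27 (0.501), and IL1RN, the interleukin-1 receptor antagonist, 0.96 ± 0.41 (0.565). In the death arm of ZBP1, 5 of 6 tested genes had higher values and 0 passed, with a median of 0.46. MLKL, the membrane-breaking effector, had 1.40 ± 0.25 (limma adjusted p = 0.323), CFLAR, which holds back caspase-8, 1.00 ± 0.19 (0.397), and the kinase RIPK3 0.58 ± 0.21 (0.564).

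In the receptor arm of type I interferon, 2 of 4 tested genes had higher and 2 lower values, with a median of 0.14 and no call. The receptor chain IFNAR2 had 0.74 ± 0.25 (limma adjusted p = 0.564), STAT2, which carries the signal to the nucleus, 0.46 ± 0.19 (0.564), and the feedback inhibitor SOCS1 -0.17 ± 0.14 (0.634), with its 4 tested probe sets between -0.17 and 0.65.

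Of the 24 genes named from these lists, 10 had a difference under 1/1.5 of the reported size, or of the other sign, without animal 3. These were TRIM21 at 0.65, TBKBP1 at 0.48, IL1RN at 0.41, IFNAR2 at 0.39, XRCC5 at 0.37, RIPK3 at 0.34, HMGB2 at 0.24, STAT2 at 0.24, NFKB1 at 0.21 and LRRC8C at -0.07.

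The genes whose 6 pair differences were most like those of each tested sensor and of STING1 were ranked by Pearson r over 11142 other named genes, each by its brightest probe set, the sensors included. For ZBP1 the closest was NLRC5, a transactivator of MHC class I genes, at r = 0.998, followed by PLEKHF2 at 0.995 and ADAMTSL4 at 0.993. NLRC5 had a difference of 1.28 (limma adjusted p = 0.538). For IFI16 the closest named ones were SEC24D and RBM7, at 0.994 and 0.993, and the unnamed locus LOC698167 at 0.992. For AIM2 they were INVS, PALS1 and KRT84, at 0.998, 0.994 and 0.994, which describes only MmugDNA.17686.1.S1_at, the probe set that ran against the other AIM2 probe sets. For STING1 they were ARLN, LOC718408 and LOC702069, at 0.991, 0.991 and 0.987. With 6 pairs from 3 animals and so many genes compared, such values describe the arrays only.

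Marker genes of the cells that could carry these sensors were compared beside them. Of 10 microglial and macrophage markers, 7 had higher values and 0 passed, with a median difference of 0.13, and their summed normalized signal ran from 4878 to 12264 in BV arrays, against 3574 to 7999 in mock arrays. Of 8 monocyte and neutrophil markers 7 were tested, 6 had higher values and 0 passed, with medians of 1.80, 0.03 and 1.37 in animals 1, 2 and 3 and sums of 1071 to 5213 in BV and 468 to 4623 in mock arrays; S100A12 was under the filter. Of the 4 T and NK cell markers tested 3 were higher, of the 5 endothelial ones 5 were, and 0 passed in either list. T and NK cell markers summed to 930 to 1360 in BV and 629 to 1257 in mock arrays, and endothelial markers to 940 to 1717 in BV and 922 to 1358 in mock arrays. Markers of B and plasma cells had 2 of 2 tested genes higher, with sums of 88.1 to 177 in BV and 63.7 to 119 in mock arrays. Genes under the filter were included in the sums, which held 4 genes for B and plasma cells and 6 for endothelium. The part of these cells in the differences of the sensors was not tested, and in tissue pieces more cells of a type and more RNA per cell cannot be told apart.

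Brain markers were bright in both groups, with sums of 8860 to 10407 in BV and 10209 to 12396 in mock arrays for astrocytes, and of 9014 to 10577 in BV and 9113 to 10301 in mock arrays for oligodendrocytes. Neuronal markers summed to 3926 to 8484 in BV and 3309 to 8597 in mock arrays. Only 4 of 6 listed astrocyte, 2 of 6 oligodendrocyte and 2 of 6 neuronal markers had a single-symbol probe set, so these sums rest on few genes. Striatal neuron markers had 6 of 6 tested genes lower (median -1.06, by animal -1.72, 1.04 and -2.30) and thalamic markers 4 of 5 higher (median 0.86), with 0 passing in either list. Their sums were 341 to 4732 in BV and 459 to 8830 in mock arrays for the striatum, and 836 to 5857 in BV and 924 to 5941 in mock arrays for the thalamus. Whether this difference in the tissue pieces has a part in the members' values was not tested.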

How the data were processed

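The authors deposited linear intensities per probe set for 12 biotin-labelled one-colour Affymetrix arrays, made with GCOS 1.4.0.036 per the submitters' processing notes; how probes were summarised and scaled is not given in the sources used here. Array medians were 50.2 to 62.8 for piece 1 and 25.4 to 32.7 for piece 2. All 52865 probe sets were quantile-normalized, put on the scale log2(signal + 3.49), where 3.49 is the 10th percentile of deposited intensities, and stripped of 99 control probe sets. This pseudocount understates folds of dim probe sets. The 31660 probe sets at or above the 40th percentile of mean log2 signal were tested. Pieces of a hemisphere were averaged, and limma 3.58.1 (R 4.3.3) fitted treatment with animal as a block, eBayes with trend, 2 residual degrees of freedom, two-sided, Benjamini-Hochberg at 0.05. The fit was tested on simulated data. Gene names come from the platform annotation of an array designed for rhesus macaque. Of the 8 member symbols, 7 also occur among the protein-coding genes of a Macaca fascicularis RefSeq table, and IFI16 does not. No detection calls were used, and the number of arrays limits the precision.

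The pairing follows from the labels' protocols: both treatments were given to each animal. Deviations of same-numbered arrays from their group means correlated at r = 0.284 to 0.623 over the 6 replicate numbers. In a fit of the 12 arrays with replicate number as block, 55 probe sets passed in place of 9, and 0 member probe sets, with member adjusted p from 0.111 to 0.728.

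The members and lists were chosen with earlier results of these data known. Named genes are all member probe sets, every passing gene of a list, filled up to 3 with those of smallest p where fewer passed, and the 3 genes most like each tested sensor and STING1. IFNB1 and S100A12 were named after their values were seen. No promoter or probe sequences were used here, so the planned promoter motif description was not made.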

Additional observations from a re-analysis of the deposited data

Results flagged for a closer look

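In 36 groups of 6 arrays (18 member probe sets, BV and mock), 5 had an array that stood apart. Its gap to its nearest neighbour took more than 0.625 of the group's range, Dixon's critical value. Chance flags about 1 in 20 groups of 6 independent normal values. Here each group held 2 pieces per hemisphere and the groups shared arrays, so that rate does not apply to the 5. CGAS MmugDNA.28886.1.S1_at was at 4.40 log2 units in mock replicate 4, above the next mock array at 2.58. STING1 MmugDNA.1287.1.S1_s_at was at 4.99 in BV replicate 1, below the next BV array at 6.65. AIM2 MmugDNA.17686.1.S1_at was at 10.82 in mock replicate 6, above the next at 10.02. Mock replicate 1 was low on 2 other AIM2 probe sets, at 6.77 against 7.94 for Mmu.10556.1.S1_s_at and at 5.45 against 6.35 for MmugDNA.4874.1.S1_at.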

How the results depend on the processing

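Member calls stayed at 0 in every alternative run except without animal 2, where there were 5. The 3 folds that changed sign were all small: AIM2 Mmu.10556.1.S1_at was at -0.12 without animal 3, and IKBKE MmugDNA.33920.1.S1_at at -0.039 in the piece 1 arrays and -0.011 without replicate 2, within a range up to 0.222 when single arrays or replicate pairs were left out. The median difference over the 7 tested member genes, by brightest probe set, was 0.49; it was 0.25 without animal 3, 0.66 without animal 2, 0.28 in the piece 1 arrays alone, 0.62 with median centring, and 0.36 to 0.55 when single arrays or replicate pairs were left out. Among the named list genes, LRRC8C was at -0.069 without animal 3. Calls over all tested probe sets, 9 as reported, were 5 with no intensity filter, 1 with no normalization and 1 without the variance trend. They were 55 with the replicate block on single arrays, 4 with no animal block and 49 with duplicateCorrelation. The piece 1 set gave 14 and the piece 2 set 0 (with 1747 at an unadjusted limma p under 0.05). There were 1 without animal 1, 1845 without animal 2 and 82 without animal 3. Leaving out single arrays or replicate pairs gave 0 to 43. The cause was not tested. Neither the replicate block nor leaving out the animal block changed a member call.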
